A study of Mus musculus with 18 samples.

Results

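Interferon regulatory factors are transcription factors that bind a shared DNA element with a common DNA-binding domain, and 8 of their genes, Irf1, Irf2, Irf3, Irf4, Irf5, Irf7, Irf8 and Irf9, were followed here by name among the 22598 genes of the deposited count files. All 8 passed the filter on low counts, which left 11563 genes for testing. The RNA came from primary mouse bone-marrow-derived macrophages, labelled WT, after 18 h, with 3 libraries in each of 6 groups. The groups were interferon-gamma (IFNg) with tumour necrosis factor (TNF), IFNg with bacterial lipopolysaccharide (LPS), IFNg with hypoxia, IFNg with interleukin-1 beta (IL1b), IFNg alone, and an untreated control. Every group but the control therefore carried IFNg, no addition was made without it, and no strain, sex, age, cytokine dose or oxygen level is given in the sources used here. Whether a group's 3 libraries are separate mice or separate dishes is not stated in the labels, and p-values here rest on library-to-library spread that may be technical.

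These factors form the layer of transcription that lies between interferon and microbial sensors on one side and antiviral, antigen presentation and inflammatory genes on the other. IFNg signals through JAK kinases to the GAS element and induces Irf1, and the IRF1 protein then switches on later genes through the interferon-stimulated response element (ISRE). IRF2 binds the same element and can oppose IRF1. IRF3 and IRF7 wait in the cytoplasm until kinases below viral and bacterial sensors phosphorylate them, and then drive interferon genes. IRF9 is the DNA-binding subunit of ISGF3, the complex that answers type I interferon. IRF5 drives inflammatory cytokine genes, and IRF8 and IRF4 work with PU.1 in myeloid and lymphoid cells, IRF8 in monocyte and dendritic cell development and IRF4 in alternative macrophage activation.

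On the mm10 build, GENCODE M21 places Irf1 (ENSMUSG00000018899) on chromosome 11 from 53770014 to 53778374. Irf2 (ENSMUSG00000031627) lies on chromosome 8 from 46739732 to 46847458, and Irf8 (ENSMUSG00000041515) on the same chromosome from 120736358 to 120756694. Irf3 (ENSMUSG00000003184) and Irf7 (ENSMUSG00000025498) share chromosome 7, at 44997648 to 45002848 and at 141262706 to 141266481. Irf4 (ENSMUSG00000021356) is on chromosome 13 from 30749226 to 30766976, Irf5 (ENSMUSG00000029771) on chromosome 6 from 29526625 to 29541871, and Irf9 (ENSMUSG00000002325) on chromosome 14 from 55603571 to 55610030. Irf7 is on the minus strand and the other 7 are on the plus strand. The counts cover coding exons. Irf1 shares 100 coding bases with Gm17334 and Irf5 shares 123 with exons of Tnpo3, both on the opposite strand, and the use of strand in the counting is not given in the sources used here; reads in those stretches are uncertain. Irf8 lies within Gm20388 on the same strand, which had 0 counts.

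The promoters of the 4 members with the largest rises under IFNg are shown because they differ in whether they hold the letters of the GAS element. RefSeq promoter windows (GRCm38.p6) were found for all 8 genes, and the first 250 bases before the annotated start are printed 5′ to 3′ for 4 of them, with GAS (TTCNNNGAA) and ISRE core (GAAANNGAA) matches in capitals, both strands searched. The windows are chr11:53769764-53770013 (plus strand), chr8:46739495-46739744 (plus), chr8:120736108-120736357 (plus) and chr7:141266425-141266674 (minus).
Irf1: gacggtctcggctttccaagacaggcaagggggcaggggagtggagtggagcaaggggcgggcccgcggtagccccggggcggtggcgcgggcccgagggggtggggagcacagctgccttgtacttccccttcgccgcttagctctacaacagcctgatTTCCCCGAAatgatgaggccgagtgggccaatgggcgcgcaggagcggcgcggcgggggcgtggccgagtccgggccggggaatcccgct
Irf2: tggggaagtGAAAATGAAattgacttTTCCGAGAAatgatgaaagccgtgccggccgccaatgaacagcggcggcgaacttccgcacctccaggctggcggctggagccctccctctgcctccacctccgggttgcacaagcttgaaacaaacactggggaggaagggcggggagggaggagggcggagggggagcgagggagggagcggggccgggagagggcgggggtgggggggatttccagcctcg
Irf8: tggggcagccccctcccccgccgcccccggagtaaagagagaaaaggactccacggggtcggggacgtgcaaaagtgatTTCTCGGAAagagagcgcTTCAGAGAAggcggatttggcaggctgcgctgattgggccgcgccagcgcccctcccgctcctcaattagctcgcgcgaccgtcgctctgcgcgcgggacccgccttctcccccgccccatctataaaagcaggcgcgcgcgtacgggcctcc
Irf7: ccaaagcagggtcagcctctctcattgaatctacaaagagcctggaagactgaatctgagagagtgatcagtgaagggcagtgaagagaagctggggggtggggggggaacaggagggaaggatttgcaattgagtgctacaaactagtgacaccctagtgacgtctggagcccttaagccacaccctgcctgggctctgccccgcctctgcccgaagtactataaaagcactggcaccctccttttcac
Irf1 holds the GAS letters TTCCCCGAA at -90 to -82 relative to the start. Irf8 holds the pair TTCTCGGAA at -171 to -163 and TTCAGAGAA at -153 to -145. Irf2 holds TTCCGAGAA at -224 to -216, and beside it the ISRE core letters GAAAATGAA at -241 to -233. Windows of 300 bases add the 50 bases after the start. In these, none of the starts listed for Irf3, Irf4, Irf5, Irf7 and Irf9 held either motif. Irf1 and Irf8 each had a second listed start, not printed here, whose window held neither motif. Of all 32851 such windows in the table, 8.30% held a GAS match and 8.56% an ISRE core match. The PU.1 letters GAGGAA were in windows of Irf2, Irf4 and Irf9, against 28.3% of all windows, and the hypoxia response letters ACGTG were in the Irf8 window at -186 to -182, against 19.6% of all windows. A match describes the letters and is not evidence of binding.

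The libraries held 12270565 to 20952799 counts each. Levels are given as counts per 1000000 (CPM), which scale a gene's count to the library's counts in tested genes after TMM normalization, and a count of 3 corresponded, across libraries, to 0.151 to 0.255 CPM. A gene was called when its adjusted p from edgeR's quasi-likelihood test, Benjamini-Hochberg adjusted over all genes tested, was under 0.05, and the log2 fold changes below are followed by their standard error (SE). When the library totals implied by the deposited RPKM replaced TMM, the fold changes of all genes moved together, the median by -0.15 on the log2 scale for IFNg against control, -0.32 for TNF, -0.08 for LPS, 0.004 for IL1b and -0.24 for hypoxia against IFNg, and 0.24 for LPS against TNF. The calls that this scaling ended or made are given with each comparison in the next paragraph. All 10 macrophage identity markers had counts in every group. Their summed level was 13840 to 15570 CPM with IFNg, against 21800 to 27330 CPM in control, and 2 of the 10 rose and 5 fell. TNF raised 3 and lowered 5 (19020 to 20450 CPM), LPS raised 3 and lowered 0, hypoxia raised 4 and lowered 0 (17150 to 17810 CPM) and IL1b changed 0, all against IFNg. The summed level of 10 neutrophil and granulocyte precursor markers was 10.2 to 17.5 CPM with TNF and 25.1 to 35.8 CPM with LPS, against 108.7 to 127.5 CPM with IFNg alone, and 8 of the 10 were lower with each, while IFNg, hypoxia and IL1b changed 0. The part of these markers' cells in the levels of the 8 genes was not tested.

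IFNg changed 6 of the 8 genes under TMM and under the RPKM totals. Irf1, Irf2, Irf5, Irf7 and Irf8 rose and Irf4 fell, where 13.5% of all genes tested rose and 10.0% fell under TMM, and 10.4% rose and 15.5% fell under the RPKM totals. TNF added to IFNg raised 3 of the 8 under TMM, Irf1, Irf5 and Irf7, and lowered 0, against 22.1% of all genes higher and 22.6% lower. Under the RPKM totals TNF raised 2, Irf1 and Irf7, and lowered 3, Irf2, Irf3 and Irf8, against 14.6% of all genes higher and 34.5% lower, and Irf5 lost its call (0.09, adjusted p = 0.474). LPS raised Irf1, Irf5 and Irf7 and lowered Irf4 under TMM, against 10.2% of all genes higher and 10.1% lower. Under the RPKM totals, where 8.32% were higher and 12.5% lower, Irf1 lost its LPS call (0.23, adjusted p = 0.101) and the other 3 kept theirs. Hypoxia raised Irf1, Irf2, Irf5 and Irf8 and lowered Irf3 under TMM, against 13.5% higher and 11.8% lower. Under the RPKM totals, where 7.68% were higher and 22.2% lower, hypoxia raised Irf8 and lowered Irf3 and Irf7, and Irf1 (0.16, adjusted p = 0.25), Irf2 (0.18, adjusted p = 0.322) and Irf5 (0.12, adjusted p = 0.365) lost their calls. IL1b changed 0 of the 8 under either scaling, with 0 at an unadjusted p under 0.05 and 0 calls by DESeq2. Of all genes, 0.268% were higher and 0.0346% lower with IL1b under TMM, and 0.303% and 0.0432% under the RPKM totals. Against IFNg with TNF, IFNg with LPS was lower in Irf1, Irf4 and Irf7 and higher in 0 of the 8 under TMM, against 12.2% of all genes higher and 13.1% lower. Under the RPKM totals, where 22.7% were higher and 7.65% lower, Irf1 and Irf4 were lower and Irf5 was higher (0.25, adjusted p = 0.0488).

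**Figure D1:**
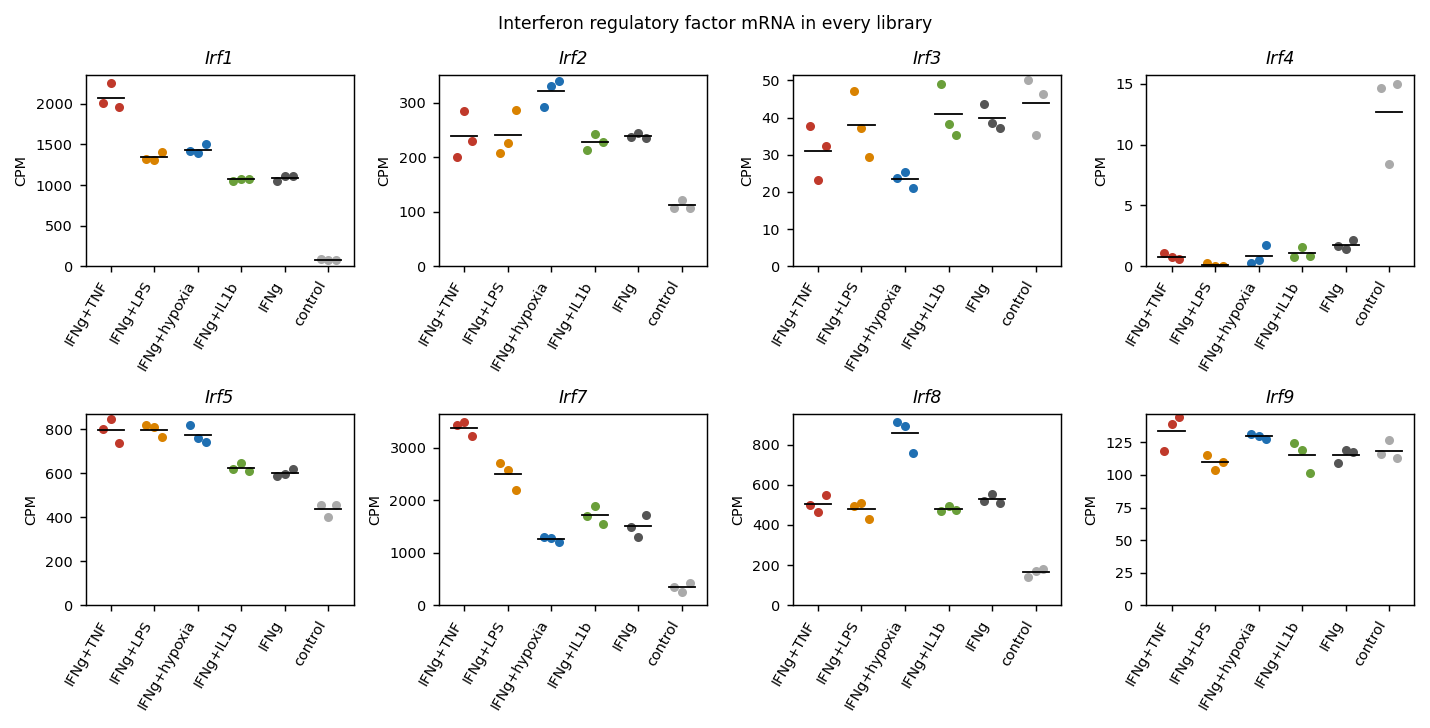
Level of each of the 8 genes in CPM (vertical axis, from 0, own scale in each panel) in each library of the 6 groups, each point 1 library and each line the mean of 3. Irf1, Irf7 and Irf8 stand above the control libraries in every group with IFNg, Irf4 stands below them, and Irf9 stays between 102 and 145 CPM throughout.

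Irf1 is an early target gene of IFNg. It had 1046, 1106 and 1114 CPM in the IFNg libraries, against 89.7, 80.2 and 74.9 CPM in the control libraries. The groups did not overlap, and the log2 fold change was 3.74 ± 0.11, a 13.3-fold higher level (adjusted p = 3.51e-20). With TNF it reached 2009, 2253 and 1964 CPM, the highest 3 values of the 18, 0.93 ± 0.10 above IFNg alone on the log2 scale (adjusted p = 9.76e-09). Hypoxia gave 1415, 1393 and 1505 CPM and LPS 1324, 1309 and 1408 CPM. These 2 groups overlapped each other and lay above all IFNg libraries, by 0.40 ± 0.10 for hypoxia (adjusted p = 0.00282) and by 0.31 ± 0.10 for LPS (adjusted p = 0.0237). Both calls are lost under the RPKM totals, and the LPS call also without the first IFNg library (adjusted p = 0.0969), the second IFNg library (0.0555) or the third LPS library (0.0687), and when only those groups are fitted (0.0739). The IL1b libraries, at 1050.4, 1079 and 1078 CPM, overlapped IFNg alone.

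Irf2, the antagonist at the shared element, answered over a narrower range. Its level was 237, 245 and 235 CPM with IFNg, against 106, 122 and 107 CPM in control, a log2 fold change of 1.09 ± 0.13 (adjusted p = 1.62e-07). With TNF (201, 285 and 230.4 CPM), LPS (208, 227 and 287 CPM) and IL1b (214, 243 and 228 CPM) the libraries overlapped those of IFNg alone. None of these 3 was called under TMM, while TNF was called lower under the RPKM totals (-0.32, adjusted p = 0.0444). Hypoxia stood apart at 293, 330.2 and 340.3 CPM, 0.43 ± 0.13 over IFNg (adjusted p = 0.0143), and this call was also lost without the second hypoxia library (0.0502), the third hypoxia library (0.0653) or the third IFNg library (0.0503).

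Irf8, the myeloid factor that partners PU.1, had its highest level with hypoxia. It had 517, 556 and 508 CPM with IFNg, against 143, 174 and 179.6 CPM in control, and the log2 fold change was 1.67 ± 0.11 (adjusted p = 3.3e-12). Hypoxia gave 914, 892 and 759 CPM, all above every other library, at 0.70 ± 0.11 over IFNg alone (adjusted p = 2.48e-05), a call kept under every alternative. TNF (499, 465 and 550.1 CPM), LPS (493, 507 and 431 CPM) and IL1b (471, 496 and 474 CPM) were not called against IFNg, except TNF under the RPKM totals (-0.39, adjusted p = 0.00348). IRF8 is also a defining factor of conventional dendritic cells, and the summed level of 8 markers of those cells was 202 to 230.4 CPM with hypoxia and 99.7 to 110.4 CPM with IFNg alone, against 4.09 to 8.35 CPM in control. Clec9a and Dpp4 made up most of that sum with hypoxia and with IFNg alone. The defining marker Zbtb46 averaged 0.136 CPM with hypoxia and 0.296 CPM with IFNg alone. The sum was 50.7 to 64.7 CPM with TNF, 37.3 to 47.1 CPM with LPS and 72.9 to 78.4 CPM with IL1b. With TNF most of it was Ccr7, at 37.5 CPM, beside Clec9a at 13.2 CPM, and Zbtb46 averaged 1.95 CPM. Of the 7 markers tested, 4 were called higher and 0 lower with IFNg against control, and 1 higher and 0 lower with hypoxia against IFNg, and Cd209a was at 0 counts in every group but control. In bulk RNA, a change in the share of cells of a type and a change in RNA per cell cannot be told apart, and the part of such cells in the Irf8 levels was not tested.

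Irf5, which encodes a driver of inflammatory cytokine genes, moved by less than Irf1. It had 585, 596 and 620.3 CPM with IFNg, against 456, 399 and 456 CPM in control, 0.46 ± 0.10 on the log2 scale (adjusted p = 0.000613). TNF gave 801, 847 and 738 CPM, LPS 818, 809 and 765 CPM and hypoxia 819.5, 760.1 and 741 CPM. All 9 of these libraries lay above all IFNg libraries, by 0.41 ± 0.10, 0.41 ± 0.10 and 0.36 ± 0.10, and their groups overlapped one another. Of the 3 calls, only that with LPS held under the RPKM totals, and the IL1b libraries (621, 645 and 609.8 CPM) overlapped IFNg alone.

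Irf7, the amplifier of interferon production, had the highest mean CPM per kb of the 8 in 4 of the 5 groups given IFNg, and second to Irf1 with hypoxia. The IFNg libraries had 1496, 1292 and 1723 CPM, against 355, 253 and 419 CPM in control, a log2 fold change of 2.13 ± 0.14 (adjusted p = 3.04e-12). With TNF it reached 3425, 3481 and 3215 CPM and with LPS 2714, 2569 and 2200.4 CPM. Both groups lay wholly above IFNg alone, by 1.17 ± 0.14 for TNF (adjusted p = 9.78e-08) and 0.73 ± 0.14 for LPS (adjusted p = 0.000262). LPS was lower than TNF, at -0.44 ± 0.14 on the log2 scale (adjusted p = 0.0203), a call lost under the RPKM totals (-0.19, adjusted p = 0.28), without the second TNF library (0.0587) and without the third LPS library (0.0907). The hypoxia libraries, at 1299, 1278 and 1208 CPM, overlapped the IFNg libraries and were not called (-0.25, adjusted p = 0.197), but were called lower under the RPKM totals (-0.49, adjusted p = 0.00487) and when only those groups were fitted (0.0268). With IL1b the values were 1705, 1883 and 1555 CPM, which overlapped IFNg. Irf7 is abundant in plasmacytoid dendritic cells. Summed, 6 markers of those cells had 67.1 to 91.5 CPM with TNF, 46.7 to 56.1 with LPS and 94.7 to 110.4 with hypoxia. They had 54.0 to 82.8 CPM with IFNg alone, against 113 to 138.8 CPM in control. Most of that was Tcf4, at 116.8 CPM in control and 69.7 CPM with TNF. Siglech averaged 1.35 CPM in control and 0.265 CPM with TNF, and Klk1 had 1 count in all libraries. The part of such cells in the Irf7 levels was not tested.

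Irf3, which encodes the factor held ready in resting cells for viral sensing, was lower with hypoxia. Its hypoxia libraries had 23.8, 25.5 and 21.1 CPM, against 43.7, 38.5 and 37.3 CPM with IFNg alone. The groups did not overlap, and the log2 fold change was -0.77 ± 0.20 (adjusted p = 0.00635). Control libraries had 50.1, 35.3 and 46.3 CPM, and IFNg against control was not called (-0.14 ± 0.20, adjusted p = 0.698). TNF (37.7, 23.1 and 32.4 CPM) and LPS (47.3, 37.1 and 29.3 CPM) spread widely and were not called against IFNg, except TNF under the RPKM totals (-0.68, adjusted p = 0.00742), and IL1b gave 49.1, 38.4 and 35.4 CPM.

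Irf9, the DNA-binding subunit of ISGF3, was called in 0 of the 6 comparisons under TMM. It had 119, 139 and 145 CPM with TNF, 115, 104 and 110.2 CPM with LPS, 132, 129 and 127 CPM with hypoxia, 125, 119 and 102 CPM with IL1b and 109, 119 and 118 CPM with IFNg alone, against 116, 127 and 113 CPM in control. IFNg against control was -0.04 ± 0.11 on the log2 scale. Irf9 was, under the RPKM totals, called lower than control with TNF (-0.29, adjusted p = 0.0304) and with LPS (-0.34, adjusted p = 0.0202). The widest gap under TMM among the 6 comparisons was that of LPS against TNF at -0.29 ± 0.11 (adjusted p = 0.064), with no overlap, and DESeq2 (0.0318) or leaving out the first TNF library (0.0307) called it.

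Irf4, a factor of alternative activation, was the scarcest member and the 1 that IFNg lowered. It had 32, 24 and 32 counts in the IFNg libraries, or 1.67, 1.41 and 2.19 CPM, against 290, 137 and 248 counts, or 14.6, 8.37 and 15.01 CPM, in control. The log2 fold change was -2.85 ± 0.72 (adjusted p = 0.00369), with no overlap. With LPS there were 4 counts in the first library and 0 in the other 2, 4 in all against 88 with IFNg alone. This LPS to IFNg ratio was 0.0464, with a 95% interval of 0.0124 to 0.123 that covers counting error only, and the gene was called lower (adjusted p = 0.000914). TNF left 19, 11 and 7 counts, hypoxia 4, 6 and 22, and IL1b 13, 25 and 11, none of which was called against IFNg. LPS was called below TNF (4 against 37 counts, adjusted p = 0.0128), though not without the second LPS library (0.0651). IRF4 is also abundant in B and plasma cells, whose 7 markers summed to 7.28 to 12.6 CPM with TNF, 63.3 to 109.6 CPM with LPS, 250.3 to 283 CPM with hypoxia, 451 to 477 CPM with IL1b and 505 to 579 CPM with IFNg, against 574 to 749.7 CPM in control. Nearly all of that was Ighm, while Ms4a1 and Pax5 had 0 counts in all libraries, and the part of such cells in the Irf4 levels was not tested.

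**Figure D2:**
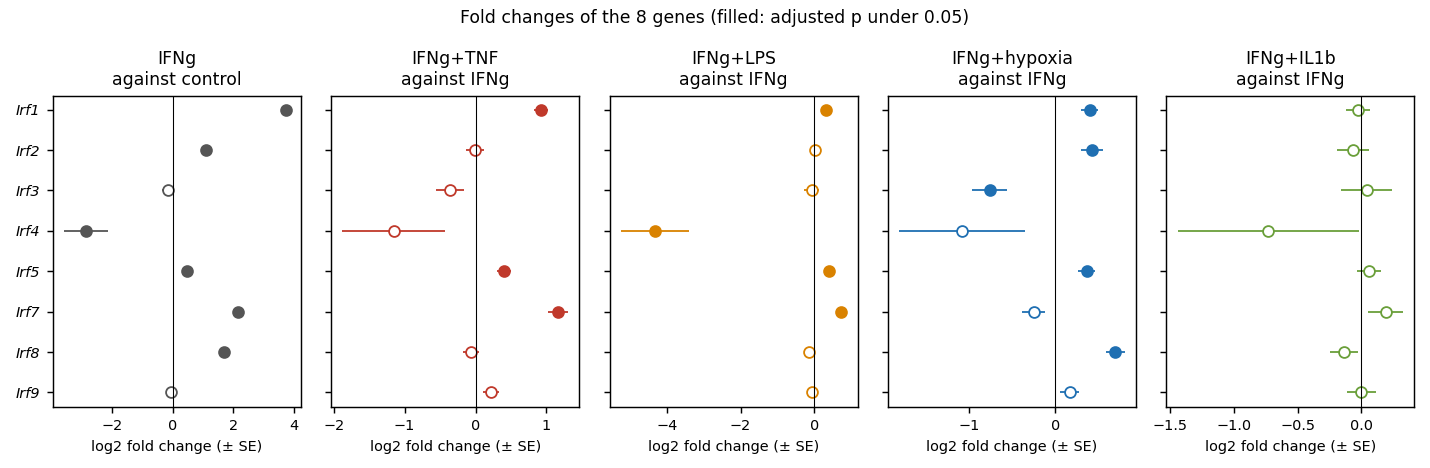
Log2 fold change (horizontal axis, own scale in each panel, bars are SE) of the 8 genes in 5 comparisons, filled where the adjusted p was under 0.05. IFNg against control runs from -2.85 for Irf4 to 3.74 for Irf1, and the IL1b panel has no filled point.

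The order of the 6 group means differed between members, and only some neighbours in it passed the threshold. The order and the calls here are those under TMM unless the RPKM totals are named. For Irf1 the order ran TNF, hypoxia, LPS, IFNg, IL1b and control from high to low. TNF passed over hypoxia (adjusted p = 7.23e-05; 39.0% of all genes were called between them, and 38.9% under the RPKM totals), and also under the RPKM totals. LPS against hypoxia was not called in Irf1 (0.519; 30.0% called, 32.7% under the RPKM totals), and IL1b passed over control (3.81e-20; 26.7% called, 28.7% under the RPKM totals). For Irf7 the order was TNF, LPS, IL1b, IFNg, hypoxia and control. LPS passed over IL1b (0.00715; 14.1% called, 14.7% under the RPKM totals), and hypoxia passed over control (1.87e-11; 40.1% called, 50.3% under the RPKM totals), as both did under the RPKM totals. Neither IL1b against IFNg nor hypoxia against IFNg passed, but across them hypoxia was lower than IL1b, at -0.44 ± 0.14 on the log2 scale (adjusted p = 0.0172). For Irf8, hypoxia led, no neighbours passed among IFNg, TNF, IL1b and LPS (under the RPKM totals, TNF was lower than IFNg and than IL1b, the second at -0.26 and adjusted p = 0.0475), and LPS passed over control (1.29e-11; 36.9% called, 39.9% under the RPKM totals). For Irf5, no neighbours passed among LPS, TNF and hypoxia or between IL1b and IFNg, and hypoxia passed over IL1b at 0.0176 (28.3% called). That gap was not kept under the RPKM totals (0.06 on the log2 scale, adjusted p = 0.697; 33.0% called), nor was TNF over IL1b (0.02, adjusted p = 0.868). For Irf2, TNF against IL1b was not called (0.713; 42.0% called, 47.2% under the RPKM totals), while hypoxia passed over LPS (0.0138), although not under the RPKM totals (0.157). Irf3 and Irf9 had 0 neighbours that passed, although TNF was called lower than control in Irf3, at -0.50 ± 0.20 on the log2 scale (adjusted p = 0.0426; 49.9% called, 57.5% under the RPKM totals) with overlapping libraries. Irf4 passed at both ends of its order, IFNg below control and LPS below TNF, and not between.

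Levels of different genes can be compared once counts are divided by the coding width. Summed over the 8 genes, CPM per kb came to 5658 ± 261 with TNF, 4293 ± 163 with LPS, 3840 ± 55.6 with hypoxia, 3352 ± 157 with IL1b and 3249 ± 155 with IFNg, against 955 ± 73.5 in control (SD, n = 3 each). On the RPKM totals, in reads per 1000000 and kb, it was 2547 ± 144 with TNF, 2287 ± 72.1 with LPS, 1820.4 ± 27.7 with hypoxia, 1890.3 ± 64.8 with IL1b and 1824 ± 39.8 with IFNg, against 596 ± 39.8 in control. Hypoxia thus lay above IFNg alone under TMM and overlapped it under the RPKM totals. The shares of the sum do not depend on the scaling, and they turned over with IFNg. Irf5 supplied 11.4 ± 0.281% of it with IFNg, against 28.3 ± 0.821% in control, where its mean share was the largest. Irf7 had 25.9 ± 4.46% in control, and in the third control library it exceeded Irf5 (29.8% against 27.5%). Irf1 supplied 32.0 ± 1.41% with IFNg, against 8.19 ± 1.05% in control. Irf9 made up 2.45 ± 0.148% with IFNg, against 8.60 ± 1.22% in control. Irf7 took 43.4 ± 1.04% with TNF and 42.2 ± 2.94% with LPS, against 33.6 ± 3.36% with IFNg alone, and 23.9 ± 0.582% with hypoxia. Irf8 took 17.5 ± 1.498% with hypoxia, against 12.8 ± 1.13% with IFNg alone.

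**Figure D3:**
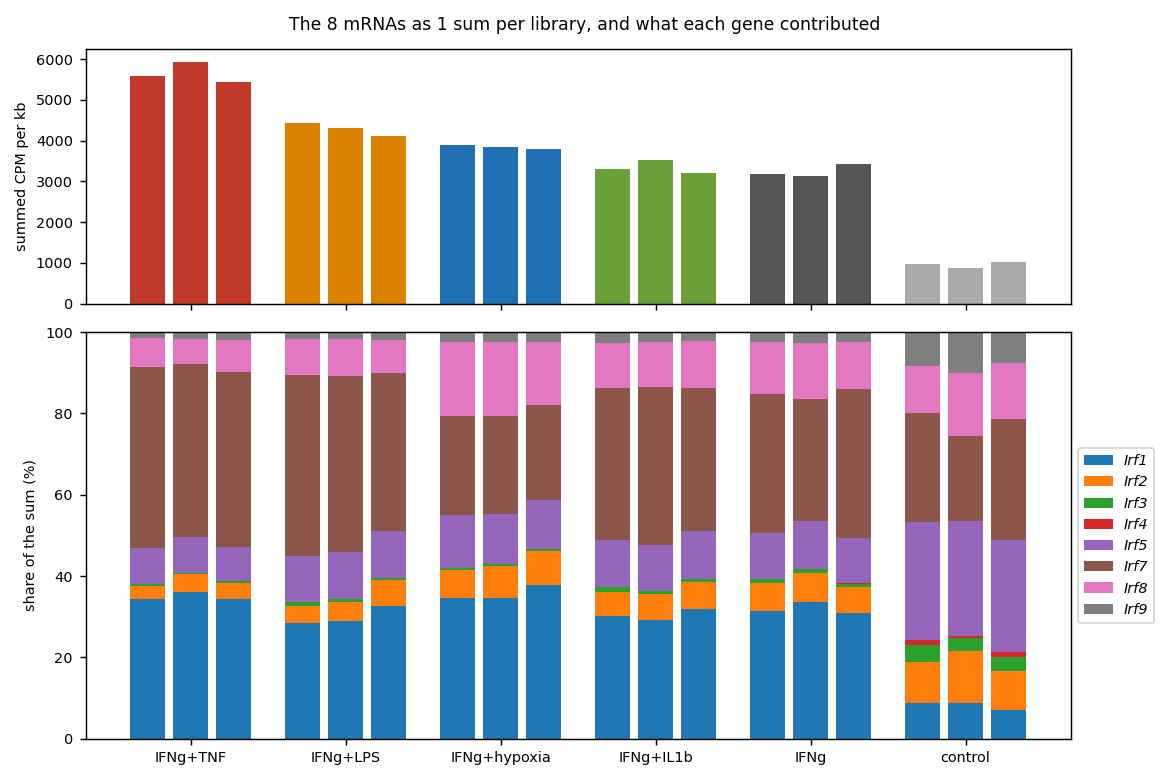
Summed CPM per kb of the 8 genes in each library (upper bars, from 0) and the percentage each gene contributed to it (lower bars). The sum averages 5658 with TNF and 955 in control, and the Irf5 share is 11.4% with IFNg against 28.3% in control.

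Ratios between 2 members within a library do not depend on how libraries are scaled. With 3 libraries against 3, the exact permutation test, 2-sided, cannot go below p = 0.1, and the 26 ratio tests gave no adjusted p under 0.137, so the ratios are described by their values. Irf1 over Irf2, the activator against its antagonist, ran from 4.57 to 4.93 with IFNg, against 0.682 to 0.875 in control. It was 8.20 to 10.4 with TNF, 5.09 to 6.61 with LPS, and 4.38 to 5.01 with hypoxia, which overlapped IFNg alone. Irf7 over Irf3 was 30.8 to 42.3 with IFNg, against 6.49 to 8.29 in control. It reached 83.2 to 138 with TNF, 52.6 to 68.9 with LPS and 46.0 to 52.6 with hypoxia, all above every IFNg library. Irf9 over Irf7 was 0.0647 to 0.0875 with IFNg, against 0.255 to 0.474 in control. Here hypoxia (0.0959 to 0.0997) lay above IFNg alone, and TNF (0.0328 to 0.0426) and LPS (0.0382 to 0.0474) lay below it. Irf4 over Irf8 was 0.0024 to 0.0041 with IFNg, against 0.0454 to 0.0966 in control.

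**Figure D4:**
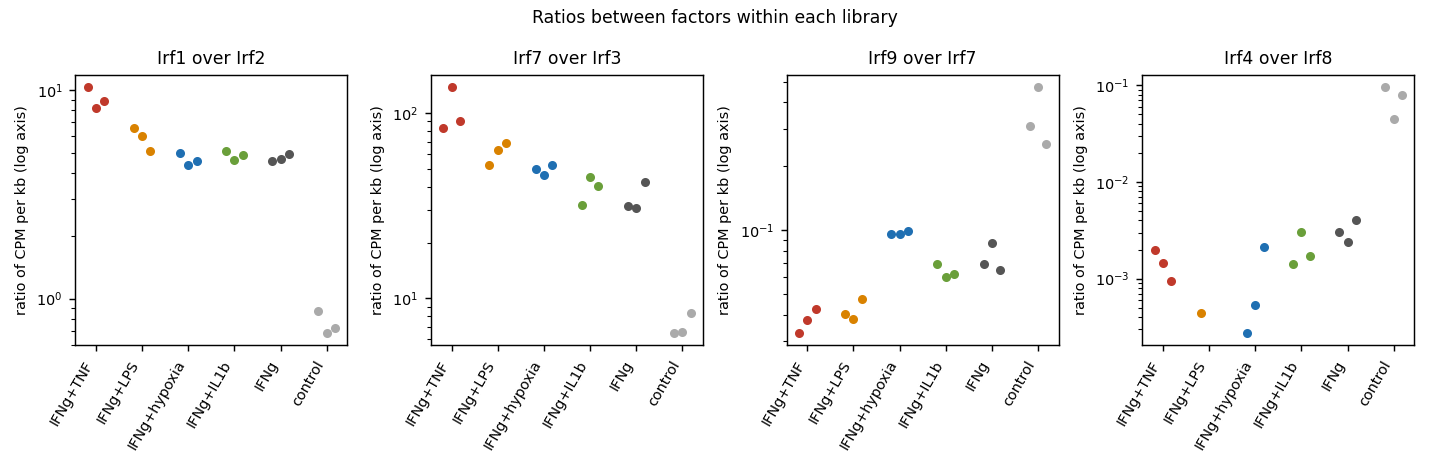
Ratios of CPM per kb between members in each library (log axis, each point 1 library, LPS libraries with 0 Irf4 counts not drawn). Irf1 over Irf2 is 4.57 to 4.93 with IFNg against 0.682 to 0.875 in control, and Irf9 over Irf7 is higher with hypoxia than with IFNg alone.

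Target genes of the factors were taken from lists of textbook targets. The lists share genes, so a gene such as Nos2 counts under both IRF1 and IRF8. The part of a factor in the changes of its listed genes was not tested. Of 20 genes listed as targets of ISGF3 or IRF7, 16 rose and 0 fell with IFNg. Of all genes, 13.5% rose and 10.0% fell. The median log2 fold change of the 20 was 0.88, against -0.015 over all genes tested. Ifi44, an interferon-induced protein gene, rose by 3.28, Ifit2, which restrains viral translation, by 2.23 and Mx1, an antiviral GTPase gene, by 1.93. With TNF, 22.1% of all genes were higher and 22.6% lower than with IFNg alone, or 14.6% and 34.5% under the RPKM totals. TNF raised 16 of the 20 and lowered 0 over IFNg (11 and 0 under the RPKM totals), with a median of 0.73 against -0.049 over all genes tested. Among them were Oasl1 at 1511 ± 129.6 CPM with TNF, against 126 ± 21.1 CPM with IFNg alone, Rsad2 (viperin) at 961 ± 196 CPM with TNF, against 139.8 ± 19.3 CPM with IFNg alone and Isg20, an exonuclease gene, at 107 ± 16.1 CPM with TNF, against 19.1 ± 6.56 CPM with IFNg alone. LPS raised 11 and lowered 0 (median 0.56, against -0.004 over all genes tested), where 10.2% of all genes were higher and 10.1% lower. The rises with LPS were led by the same 3 genes in the same order. Hypoxia raised 0 and lowered 1, Ifi44 (-0.41), with a median of -0.19, where 13.5% of all genes were higher and 11.8% lower. Under the RPKM totals hypoxia raised 0 and lowered 10, where 7.68% of all genes were higher and 22.2% lower. IL1b changed 0, where 0.268% of all genes were higher and 0.0346% lower. Against TNF, LPS was lower in 7 and higher in 0, or 5 and 1 under the RPKM totals. In that comparison 13.1% of all genes were lower and 12.2% higher, or 7.65% and 22.7% under the RPKM totals.

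The interferon genes themselves were nearly silent. Of 21, 20 had 0 counts in all libraries, and Ifnb1 had 62 counts in the TNF libraries, most of them in 1, 18 with LPS and 12 with IFNg alone, against 0 in control, and was called in 0 of the 6 comparisons. Interferon mRNA made and lost before 18 h is not measured by these libraries.

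Of 19 IRF1 targets tested, 16 rose and 0 fell with IFNg, with a median of 4.05. Of all genes, 13.5% rose and 10.0% fell. Cxcl9, a T cell chemokine gene, rose by 11.68, with 521 ± 22.6 CPM in IFNg libraries and 8 counts in all control libraries. Ptgs2, the inducible cyclooxygenase gene, had 23.4 ± 3.59 CPM with IFNg and 0 counts in control. Socs1, the feedback inhibitor of JAK signalling, had 454 counts with IFNg and 1 in control. TNF raised 13 and lowered 1, where 22.1% of all genes were higher and 22.6% lower under TMM. Under the RPKM totals TNF raised 10 and lowered 3, where 14.6% of all genes were higher and 34.5% lower. The 1 lowered under TMM was Ciita, the regulator of MHC class II. It had 197 ± 16.5 CPM with TNF, against 749 ± 45.0 CPM with IFNg alone. Among the 13, Nos2, the inducible nitric oxide synthase gene, had 20102 ± 1774 CPM with TNF, against 24.9 ± 7.71 CPM with IFNg alone, Ptgs2 had 5847 ± 524 CPM with TNF, against 23.4 ± 3.59 CPM with IFNg alone, and Il12b, the IL-12 p40 gene, had 333 counts with TNF and 0 with IFNg alone. LPS raised 9 and lowered 1, where 10.2% of all genes were higher and 10.1% lower. Hypoxia raised 10 and lowered 1, where 13.5% of all genes were higher and 11.8% lower. Under the RPKM totals hypoxia raised 6 and lowered 3, where 7.68% were higher and 22.2% lower. With hypoxia Nos2, Ido1, which degrades tryptophan, and Ptgs2 rose by 5.54, 5.19 and 2.35. With IL1b, where Irf1 was not called, 2 rose, Nos2 by 2.99 and Ptgs2 by 1.30. Of all genes, 0.268% were higher and 0.0346% lower with IL1b.

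Shorter lists describe the other factors. Of 6 IRF5 targets tested, TNF raised 5 and lowered 1, where 22.1% of all genes were higher and 22.6% lower. LPS raised 5 and lowered 0, where 10.2% were higher and 10.1% lower. Il6 had 826 counts with TNF, 118 with LPS and 0 with IFNg alone. Il1b had 1688 ± 159.9 CPM with TNF, against 2.25 ± 0.773 CPM with IFNg alone. Hypoxia raised 2 and lowered 2 of the same 6, where 13.5% of all genes were higher and 11.8% lower. With hypoxia the chemokine gene Ccl5 was up by 1.505 and Ccl4 down by 1.77 on the log2 scale. Of 13 IRF8 targets tested, 6 rose and 2 fell with IFNg, where 13.5% of all genes rose and 10.0% fell. Among the risers was Ctsc, the cathepsin C gene, at 4555 ± 67.4 CPM with IFNg, against 389 ± 33.4 CPM in control. Hypoxia, where Irf8 was highest, raised 5 and lowered 2 of the 13, where 13.5% of all genes were higher and 11.8% lower. Under the RPKM totals hypoxia raised 4 and lowered 3, where 7.68% were higher and 22.2% lower. TNF raised 9 and lowered 4, where 22.1% of all genes were higher and 22.6% lower. Under the RPKM totals TNF raised 7 and lowered 4, where 14.6% were higher and 34.5% lower. LPS raised 6 and lowered 3 under either scaling. With LPS 10.2% of all genes were higher and 10.1% lower under TMM, and 8.32% and 12.5% under the RPKM totals. Of 6 targets of IRF4 in macrophages tested, IFNg lowered Mrc1, the mannose receptor gene, by 2.71 on the log2 scale, and raised Arg1, the arginase gene, with 213 counts with IFNg, against 0 in control. The other 4 were not called with IFNg, where 13.5% of all genes rose and 10.0% fell. Over IFNg alone, LPS raised 1 and lowered 2 of the 6, TNF raised 3 and lowered 2, and hypoxia raised 1 and lowered 1. The shares of all genes with each of these are given above for the IRF8 targets. Arg1 had 414 ± 26.6 CPM with hypoxia, against 4.23 ± 0.440 CPM with IFNg alone. Mrc1 was lower by 5.62 on the log2 scale with TNF.

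**Figure D5:**
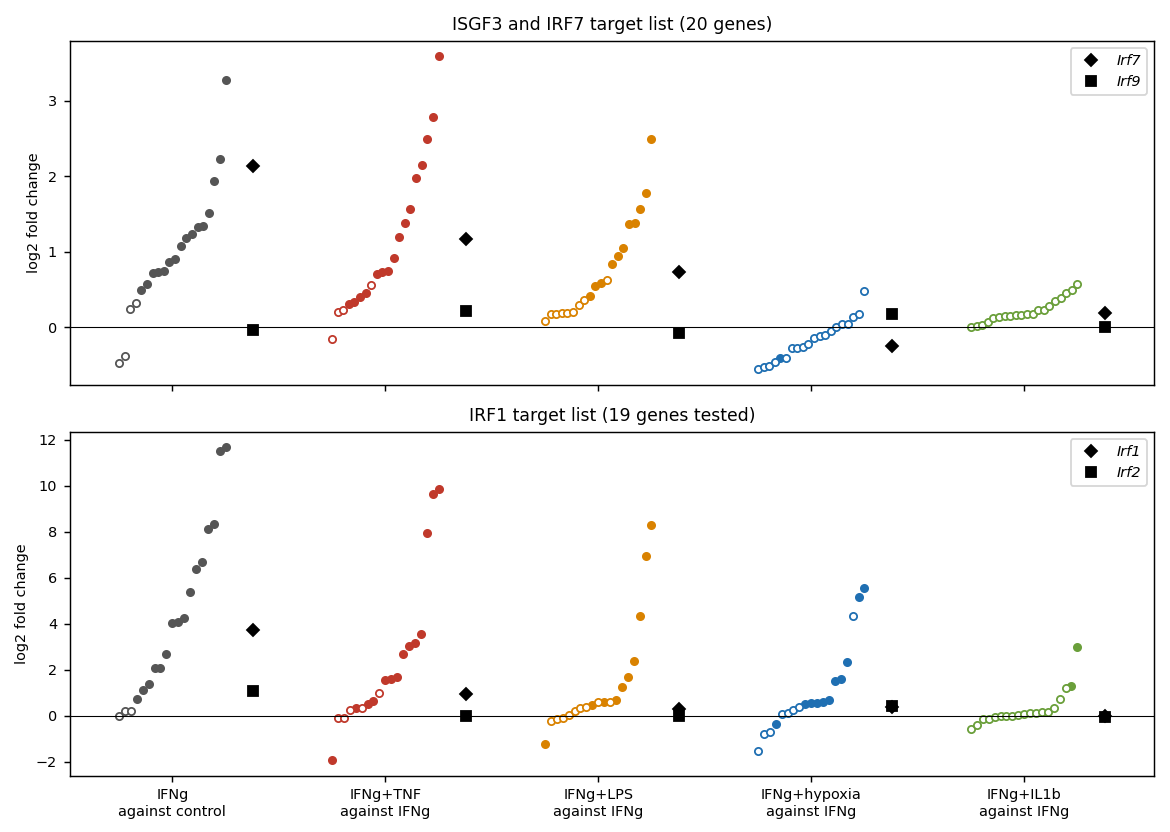
Log2 fold changes of listed targets of ISGF3 and IRF7 (above) and of IRF1 (below), each circle 1 gene in rising order, filled where the adjusted p was under 0.05, beside Irf7 and Irf9 or Irf1 and Irf2 (black marks). With TNF 16 of 20 ISGF3 and IRF7 targets are filled and with hypoxia 1.

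Upstream of the factors, 6 of 10 genes of the interferon receptors and their JAK and STAT partners rose with IFNg and 0 fell under TMM. Of all genes, 13.5% rose and 10.0% fell. With the size factors of DESeq2, and also under the RPKM totals, 6 of the 10 rose and 1 fell. Under the RPKM totals 10.4% of all genes rose and 15.5% fell. Stat2, which encodes a partner of IRF9, rose by 1.04 and the kinase gene Jak2 by 1.33. TNF raised 8 and lowered 1, the IFNg receptor gene Ifngr1 (-1.18), or 4 and 2 under the RPKM totals. LPS raised 3 and lowered 2, or 1 and 2 under the RPKM totals. Hypoxia raised 5 and lowered 0, or 0 and 1 under the RPKM totals. Of all genes, 22.1% were higher and 22.6% lower with TNF, 10.2% and 10.1% with LPS, and 13.5% and 11.8% with hypoxia. Under the RPKM totals these shares were 14.6% and 34.5% with TNF, 8.32% and 12.5% with LPS, and 7.68% and 22.2% with hypoxia.

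Kinases, sensors and adaptors that activate the IRF3, IRF5 and IRF7 proteins numbered 23, of which IFNg raised 10 and lowered 1, or 10 and 3 under the RPKM totals. Tlr9, the DNA sensor gene, rose by 2.06, Tmem173, which encodes STING, by 1.90 and Tlr3, the sensor of double-stranded RNA, by 1.14. TNF raised 9 and lowered 8, or 5 and 10 under the RPKM totals, with Tank, a scaffold of the IRF3 kinases, up by 2.21, the adaptor gene Traf3 up by 1.95, and Tlr9 lower at -1.999 on the log2 scale. LPS raised 4 and lowered 4, or 4 and 6 under the RPKM totals, with Tlr7 down by 1.02. Hypoxia raised 3 and lowered 2 of the 23, near the shares of all genes (13.5% higher and 11.8% lower), or 2 and 6 under the RPKM totals, with Tlr7 down by 1.28. Of all genes, 13.5% were higher and 10.0% lower with IFNg, 22.1% and 22.6% with TNF, and 10.2% and 10.1% with LPS under TMM. Under the RPKM totals the shares were 10.4% and 15.5% with IFNg, 14.6% and 34.5% with TNF, and 8.32% and 12.5% with LPS. With hypoxia they were 7.68% and 22.2% under the RPKM totals. The mRNA counts do not show the phosphorylation that activates these factors.

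Of 9 DNA-binding partners of IRF4 and IRF8, IFNg raised 2 and lowered 0, Batf2 with 11939 counts with IFNg against 441 in control, and Batf3 with 112 against 3. TNF raised Ets2 by 5.005 and Batf2 by 1.27 and lowered Ikzf1, the Ikaros gene, by 1.21 on the log2 scale, and hypoxia raised Ets1 by 3.34 and Ets2 by 0.73. Of all genes, 13.5% were higher and 10.0% lower with IFNg, 22.1% and 22.6% with TNF, and 13.5% and 11.8% with hypoxia under TMM. Under the RPKM totals TNF raised 2 and lowered 2 of these partners, where 14.6% of all genes were higher and 34.5% lower. There hypoxia raised 1 and lowered 2, where 7.68% were higher and 22.2% lower. Of 9 cofactors and regulators, IFNg raised Trim21, a ubiquitin ligase gene, by 1.22 and Kat2b, an acetyltransferase gene, by 1.14, and lowered Irf2bp2, the IRF2 corepressor gene, by 1.11 on the log2 scale. TNF raised Irf2bp2 alone among the 9 (1.27) and lowered 0, or 1 and 3 under the RPKM totals. The counts under the RPKM totals were near the shares of all genes there, 14.6% higher and 34.5% lower. Of all genes, 22.1% were higher and 22.6% lower with TNF under TMM. LPS lowered 1, Ep300, where 10.1% of all genes were lower, and this call was lost with the size factors of DESeq2. Hypoxia raised 4 and lowered 1, the chaperone gene Fkbp4 (-0.96), or 1 and 1 under the RPKM totals. IL1b changed 0 in any of these 4 upstream and partner lists.

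Likeness of pattern was measured as the root-mean-square difference, on the log2 scale, of 6 group means of each gene centred on its own mean, over 11563 genes, and is a description. Nearest to Irf1 were Ctsc (0.123), Slfn1 (0.209) and H2-Oa (0.227). Nearest to Irf7 were Ifi206 (0.106), Inpp5b (0.163) and Nod1 (0.224), and nearest to Irf8 were Dtx3l (0.0705), Peli1 (0.0857) and Pcmtd1 (0.0888). Uhrf1bp1 (0.0702) and Nek6 (0.0732) were among the 3 nearest to Irf2, and Irf5 was most like Psme4 (0.0548), Nus1 (0.0596) and Slc26a2 (0.0638). The nearest to Irf3 were Nxt1 (0.045), Ints1 (0.0467) and Rbm28 (0.0576), to Irf9 Pbrm1 (0.0258), Fam193a (0.0364) and Pum2 (0.0373), and to Irf4 Plcb4 (0.384), Cbr2 (0.437) and Ddah2 (0.450). The size of the difference follows the range of the member, which was 0.284 for Irf9 and 6.12 for Irf4. Within the family the nearest pairs were Irf2 and Irf5 (0.251), Irf2 and Irf8 (0.253) and Irf5 and Irf9 (0.296), and the member nearest to Irf1 was Irf7 (0.665).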

How the data were processed

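RNA sequencing libraries of mouse bone-marrow-derived macrophages were grouped by the treatment in their labels. Reads were aligned with GSNAP to mm10, per the submitters' processing notes, with no version given. The files deposited by the authors list for each gene a read count, a width in bases and an RPKM value. The deposited RPKM values were used only for the library totals they imply, 22728833 to 39859629 reads. Of the deposited widths, 91.2% lay within 5% of the union of coding exons in GENCODE M21, which also gave symbols for 22457 identifiers. Genes were tested with edgeR 4.0.16 in R 4.3.3 (TMM, factors 0.805 to 1.186, filterByExpr, glmQLFit with robust estimation, glmQLFTest) with all 18 libraries and the 6 group means in 1 model. P-values were Benjamini-Hochberg adjusted within a comparison, and the SE is the fold change over the square root of F. The test was checked on counts drawn for IFNg and control only. Equal numbers of genes were raised and lowered by known folds, with a fixed spread between libraries. That check does not bear on the choice of scaling. Alternatives were DESeq2 1.42.0, its size factors, the RPKM totals, other filters, only the groups compared, the replicate number as a block, and leaving out each library. Named genes were the 8 members, the 3 most alike genes of each member, and up to 3 called genes with the largest change of a list; Ciita, Stat2, Il6, Ctsc, Tlr7, Ccl4, Ifnb1 and Irf2bp2 were named beside a count, chosen after their values were seen. Some genes under these rules are not reported here. The members and lists were chosen with earlier results of these data known. Intervals and floors cover counting error only.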

Additional observations from a re-analysis of the deposited data

How the results depend on the processing

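Of 48 results (8 genes in 6 comparisons), 21 were called. The shares of all genes called in these comparisons are given above with each comparison. Over all alternatives these 21 gave 272 values, of which 256 stayed past the threshold, 16 did not and 0 changed direction. The calls lost concern 7 of the 21, and 4 of them with the RPKM totals left aside. The cause was not tested. Under the RPKM totals, 5 members were called with TNF against IFNg (2 higher, 3 lower) and 3 with hypoxia against IFNg (1 higher, 2 lower). Of all genes, 14.6% were higher and 34.5% lower with TNF under those totals, and 7.68% higher and 22.2% lower with hypoxia. For IL1b against IFNg 35 of all genes were called, 79 with DESeq2, 68 when only the groups compared were fitted, and 15 to 35 when 1 library was left out, and 596 had an unadjusted p under 0.05. The direction of values near 0 that were not called changed. Under the RPKM totals Irf9 was at -0.104 with TNF, -0.078 with hypoxia and 0.005 with IL1b, Irf2 was at -0.066 with LPS, all against IFNg, and Irf8 was at 0.162 for LPS against TNF. Irf2 with TNF was at 0.017 with DESeq2 and with its size factors and at 0.004 with the filter of 1 CPM in 3 libraries. Irf5 for LPS against TNF was at -0.006, -0.006 and 0.00 under the same settings, and Irf9 with IL1b was at 0.001 with no filter. When 1 library was left out, Irf9 ran from -0.069 to 0.015 for IFNg against control and from -0.061 to 0.082 with IL1b. Irf2 ran from -0.148 to 0.110 with TNF, from -0.137 to 0.118 with LPS and from -0.136 to 0.158 for LPS against TNF. Irf3 ran from -0.249 to 0.082 with LPS and from -0.110 to 0.136 with IL1b, and Irf5 from -0.047 to 0.051 for LPS against TNF. The log2 ratio of Irf1 over Irf2 ran from -0.076 to 0.021 for hypoxia against IFNg, and 2 of 182 ratio values changed direction in all. For the other 9 pairs of groups the RPKM totals were added after seeing the data. In these pairs 14.1% to 49.9% of all genes were called under TMM, and 14.7% to 57.5% under the RPKM totals. Of 72 member results there, 48 were called under TMM, of which 41 stayed called, 7 did not and 0 changed direction. The 10 that changed direction were not called under TMM. They were Irf9 with TNF against control (-0.295), hypoxia (-0.026) and IL1b (-0.109) and with hypoxia against control (-0.269) and IL1b (-0.083), Irf8 (-0.256) and Irf2 (-0.257) with TNF against IL1b, Irf2 with LPS against IL1b (-0.003), Irf1 with LPS against hypoxia (0.076) and Irf5 with TNF against hypoxia (-0.034).

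The replicate numbers of the labels were not used to pair the libraries. No comparison had every same-numbered pair correlate above 0.1 (-0.056 to 0.233), but this cutoff cannot show that the libraries are unpaired. For IFNg against control, same-numbered pairs were at 0.071, 0.054 and 0.058, and differently numbered pairs at -0.038 to -0.018. With the number as a block, 6 members were called for IFNg against control and Irf1 was at 3.74, and 0 of the 48 member results changed call or sign. Of all genes, 2917 were called for IFNg against control with the block and 2727 without it. Every library correlated best with its own number in 3 of the 6 comparisons, a hint from the data and not the design. Irf4 is limited by depth, with 4 counts in all LPS libraries, and the ratios to it could not be computed in the LPS libraries at 0.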
